A study of Homo sapiens with 6 samples.

Results

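Replication-dependent histone genes encode the bulk of the protein on which DNA is wound. Core histones H2A, H2B, H3 and H4 form the nucleosome and linker histone H1 binds the DNA between nucleosomes. Many near-identical copies of each gene sit in clusters and are used when DNA is replicated. Their transcripts mostly lack introns and end in a short stem-loop in place of a poly(A) tail, which the stem-loop binding protein SLBP holds.

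All genes whose deposited name begins with HIST and a digit were taken, which gave 68 of the 15897 listed genes. H1 had 6 listed genes, H2A 16, H2B 18, H3 15 and H4 13. By position in hg19, 53 lay in the HIST1 cluster on chromosome 6, 12 in HIST2 and 2 in HIST3 on chromosome 1, and 1, HIST4H4, on chromosome 12. HIST1 fell into a first block of 32 genes (chr6:25727005-26285866) and a second block of 21 genes (chr6:27093676-27861621). HIST1H3D was listed in 2 rows, as a gene of a single exon (ENSG00000197409) and as a longer locus (ENSG00000282988) that also covers HIST1H2AD, here called the long HIST1H3D locus.

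RNA of the lung adenocarcinoma cell line H1650 was sequenced in 3 control libraries and in 3 libraries labelled shSETD2, in which a short hairpin RNA was directed at SETD2, the enzyme that trimethylates lysine 36 of histone H3. No treatment or time point is named for either group. The study made stable lines with lentiviral pLKO.1 hairpins, but the sources do not say whether the library numbers stand for hairpin constructs or for repeats of one line, nor whether RNA was selected by its poly(A) tail or depleted of ribosomal RNA. P-values therefore measure the spread between these libraries, which may be technical.

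Values are FPKM, which scales fragments to transcript length and library size, and the listed genes summed to between 218769 and 224603 FPKM in each library. The fragments behind each value are unknown, so no counting error is given, and fewer cells using a gene and less RNA per cell cannot be told apart in such bulk samples. Pearson's r of log2(FPKM + 1) across genes was 0.982 to 0.990 within a group and 0.701 to 0.707 between groups. SETD2 itself had 18.0, 10.2 and 17.6 FPKM in control and 8.97, 8.09 and 12.2 FPKM in shSETD2 libraries, so the groups overlapped (log2 difference -0.58, SE 0.24, adjusted p = 0.0641 by limma). Of 8 lung epithelium markers only NKX2-1 was listed, at a mean of 1.65 FPKM in control and 0 in every shSETD2 library. Of 9 epithelium markers, KRT18 and KRT8 had a mean of at least 1 FPKM in both groups, CDH1 in control and KRT7 in shSETD2 libraries. Between control and shSETD2 libraries KRT18 rose from 10.04 to 254.6 FPKM, KRT8 from 2.86 to 93.9 FPKM and KRT7 from 0.0208 to 81.9 FPKM, while CDH1, the epithelial cadherin, fell from 1.27 to 0.0120 FPKM and EPCAM was under 1 FPKM in both. Of 9 renal epithelium markers, 7 were listed. Their sum was 18.9 to 20.7 FPKM in control and 57.2 to 67.2 FPKM in shSETD2 libraries, with SALL1 and EMX2 at 0 in every shSETD2 library. The part of these differences in the histone results was not tested.

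Histone genes moved in both directions between the groups, and the largest differences were rises from almost nothing. Of the 64 histone genes with a mean of at least 0.5 FPKM, 21 (32.8%) rose and 35 (54.7%) fell in shSETD2 libraries at an adjusted p under 0.05 in limma, and 8 did not pass the test. Over all 14068 genes tested, 26.8% rose and 51.8% fell, so the members' shares were near those of all genes. The median difference of the 64 genes was -0.41 on the log2(FPKM + 1) scale, beside -0.29 for all genes tested. With median ratio scaling, which moved the median of all genes to -0.01, 23 histone genes rose, 24 fell and 17 did not pass, beside 37.7% higher and 38.3% lower over all genes. HIST1H1A, HIST1H2BA, HIST1H2BB and HIST1H3C stayed under 0.5 FPKM in every library and were not tested. Without a test, 21 of the 68 had every shSETD2 library above every control library, 37 had the reverse and 10 overlapped, against 26.7% and 53.3% of the 15775 genes not at 0 throughout.

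**Figure D1:**
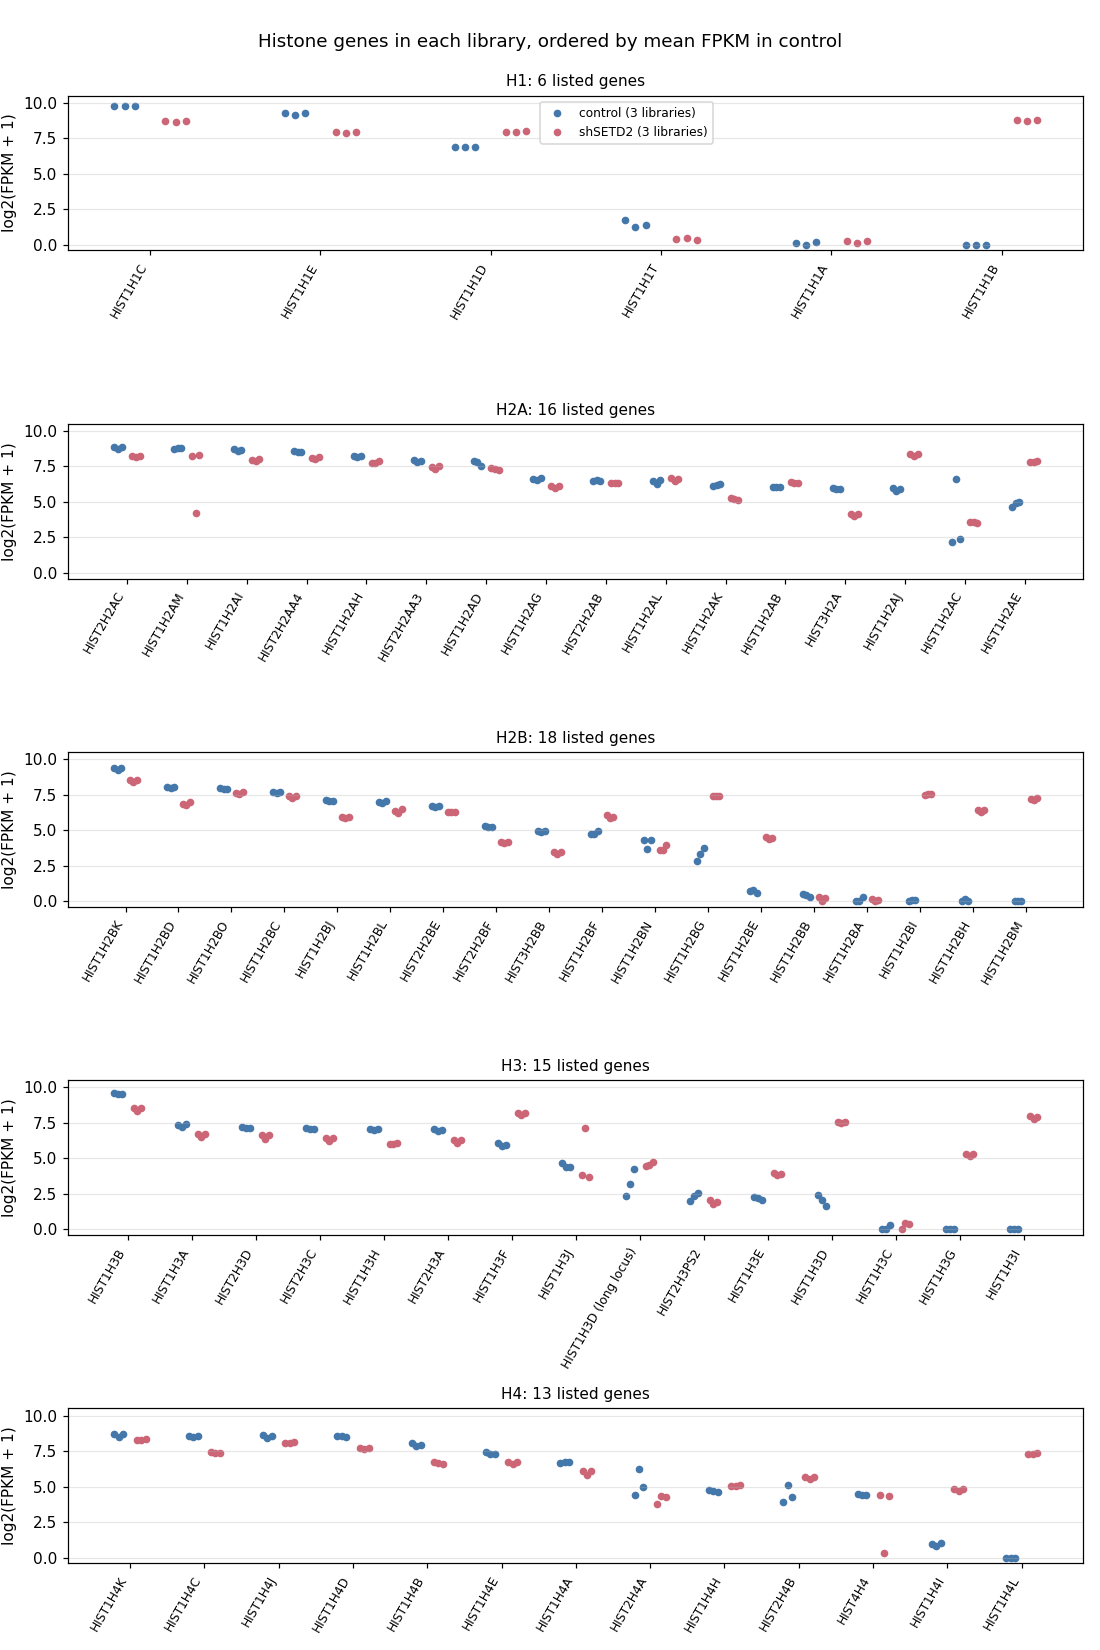
Each point is 1 library, with log2(FPKM + 1) on the vertical axis and the genes of a class on the horizontal axis, in the order of their mean in control. The gene highest in control lies lower in shSETD2 libraries in every class (for HIST1H4K, not with median ratio scaling), while HIST1H1D rises from a mean of 115 to 247 FPKM and HIST1H1B goes from 0 to a mean of 431 FPKM.

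The clearest pattern was a set of 8 histone genes listed under 1 FPKM in every control library and at 10 FPKM or more in every shSETD2 library. These limits were chosen after the values were seen. These 8 of 68 members compare with 0.887% of all listed genes. The bases are unlike, since 62 of the 68 members but only 5336 of the 15897 listed genes reached 10 FPKM in a library. The reverse, at least 10 FPKM in every control library and under 1 in every shSETD2 library, was met by 0 of 68 members and by 0.44% of all genes. The set held 1 linker histone gene, HIST1H1B, 4 H2B genes, 2 H3 genes and 1 H4 gene, and no H2A gene.

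HIST1H1B, a linker histone gene, stood at 0 in each of the 3 control libraries, with 437, 416 and 440 FPKM in the shSETD2 libraries. HIST1H3I, an H3 gene, was likewise at 0 in every control library and had 248, 212 and 245 FPKM in shSETD2 libraries. For both, separation of the groups was required by the limits that chose them. HIST1H4L, an H4 gene, was at 0 in control and had 157, 158 and 166 FPKM. HIST1H2BM, an H2B gene, was at 0 in control and had 145, 139 and 154 FPKM. No fold is given for these 4 genes, since a value of 0 has no known depth behind it.

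The other 4 were near 0 in control. HIST1H2BI, an H2B gene, had 0, 0.0785 and 0.0387 FPKM in control and 177, 186 and 185 FPKM in shSETD2 libraries. HIST1H2BH, also H2B, had 0, 0.0892 and 0 FPKM in control and 83.2, 75.8 and 82.7 FPKM in shSETD2 libraries. Separation of the groups was likewise required for either gene by the limits. HIST1H3G, an H3 gene, had 0, 0 and 0.034 FPKM in control and 39.2, 34.3 and 38.8 FPKM in shSETD2 libraries. HIST1H2BE, an H2B gene, differed least, with 0.627, 0.755 and 0.509 FPKM in control and 21.7, 19.4 and 20.9 FPKM in shSETD2 libraries. The limits that chose these 8 genes use the same contrast as the test, so no p is given for them, and 7 of them passed the filter on low values only through the shSETD2 libraries. The libraries of a group lay close together. HIST1H4I fell just outside the limits, with 0.901, 0.787 and 1.07 FPKM in control and 26.9, 25.1 and 27.2 FPKM in shSETD2 libraries.

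Together the 8 genes summed to 0.627, 0.923 and 0.582 FPKM in control and to 1308, 1240 and 1332 FPKM in shSETD2 libraries, which was 14.7% to 15.1% of all histone FPKM there. The other 60 genes summed to 10245, 9833 and 10103 FPKM in control and to 7567, 6973 and 7725 FPKM in shSETD2 libraries. Their sum in shSETD2 was 0.738 times that in control.

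Reads of near-identical copies can be assigned to the wrong gene, so the coding sequences were cut into all 75-base stretches and compared with the annotated transcripts of other genes. Coding sequence could be read for 62 members, of which 35 shared no stretch, 12 shared some and 15 shared over 50%. A gene that shared none can still share sequence outside its coding part, as HIST1H3J does with HIST1H2AM. Of the 8 genes near 0 in control, 7 shared none, and HIST1H2BE shared 13.7% of its stretches. The pairs HIST2H4A and HIST2H4B, HIST2H3A and HIST2H3C, and HIST1H4J and HIST1H4K shared all of theirs. HIST2H2AA3 shared all of its stretches with its twin copy, HIST2H2AA4 could not be read, HIST2H3D shared 78.3%, and HIST1H2AI shared 80.9%, with HIST1H2AJ, which moved the other way. Values of these genes are uncertain.

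The stem-loop that marks these genes was found in the reference downstream of the stop codon. The search took a stem of 6 bases beginning with GG, a loop of 4 bases beginning with TT and the complement of the stem. Within 100 bases after the stop it occurred in 56 of 62 members (90.3%) and in 10 of 19637 other protein-coding genes (0.0509%). HIST2H3PS2, HIST2H2AA4, HIST1H3B, HIST1H3C, HIST1H2BF and HIST1H2BG were not in the annotation under their listed identifiers. Members were set apart by identifier only, so the other genes may include these under newer identifiers. All 44 matches in H1, H2A, H2B and H3 genes had 1 stem and all 12 matches in H4 genes another. The examples below show both stems and the variation in the loop, in the sense of the transcript, with the stem in capitals. In GRCh37 they lie at chr6:27834575-27834590 on the minus strand, chr6:26271151-26271166 on the minus strand, chr6:26188943-26188958 on the minus strand and chr6:27107433-27107448 on the plus strand, in the order given.
HIST1H1B: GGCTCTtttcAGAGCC
HIST1H3G: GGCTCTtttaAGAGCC
HIST1H4D: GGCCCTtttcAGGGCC
HIST1H4I: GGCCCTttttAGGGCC

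Of the 8 genes near 0 in control, 6 had a match and HIST1H2BI and HIST1H4L had none in that window. HIST1H1B, near 0 in control, and HIST1H1C, high in both groups, carry the same 16 bases.

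Promoters of 60 members were matched in RefSeq (GRCh38.p14, 250 bases before to 50 bases after the start). They were searched on both strands for the core promoter motif TATAAA, for the box known as CCAAT and for ATTTGCAT, the octamer typical of H2B promoters. CCAAT was present in all 6 H1, 15 H2A, 16 H2B and 12 H3 promoters but in 2 of 11 H4 promoters (18.2%), beside 34.5% of 35052 other promoters. ATTTGCAT was present in 12 of 16 H2B (75%) and 10 of 15 H2A promoters (66.7%), in 1 of 12 H3 promoters, that of HIST1H3D, whose window is also that of HIST1H2AD, and in no H1 or H4 promoter, beside 1.71% of other promoters. TATAAA was present in 50% to 75% of the promoters of each class, beside 11.4% of other promoters. The 2 H4 promoters with CCAAT were those of HIST1H4I and HIST1H4L, the 2 H4 genes with the largest rise. This was noticed after the values were seen and rests on 2 genes.

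For each of the 4 classes with a gene near 0 in control, the promoter of the one highest in shSETD2 libraries with a promoter entry is shown before that of the gene highest in control. Capitals mark the 3 motifs on either strand, and neighbouring matches can overlap. In order the windows are chr6:27867539-27867838 (minus), chr6:26056421-26056720 (minus), chr6:26272681-26272980 (plus), chr6:27146809-27147108 (minus), chr6:26271364-26271663 (minus), chr6:26032050-26032349 (minus), chr6:27873485-27873784 (minus) and chr6:27831511-27831810 (minus), in GRCh38.p14.
HIST1H1B: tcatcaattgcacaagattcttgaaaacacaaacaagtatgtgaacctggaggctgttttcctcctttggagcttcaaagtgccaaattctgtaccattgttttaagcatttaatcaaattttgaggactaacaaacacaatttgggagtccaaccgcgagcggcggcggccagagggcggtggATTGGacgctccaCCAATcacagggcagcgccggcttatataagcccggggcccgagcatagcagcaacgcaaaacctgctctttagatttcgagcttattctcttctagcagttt
HIST1H1C: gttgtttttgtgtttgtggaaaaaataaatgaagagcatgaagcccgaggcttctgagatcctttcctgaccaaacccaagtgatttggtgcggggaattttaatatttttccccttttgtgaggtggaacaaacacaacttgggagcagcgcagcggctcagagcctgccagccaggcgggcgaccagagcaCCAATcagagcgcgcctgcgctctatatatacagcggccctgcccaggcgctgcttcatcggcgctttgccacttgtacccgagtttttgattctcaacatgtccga
HIST1H2BI: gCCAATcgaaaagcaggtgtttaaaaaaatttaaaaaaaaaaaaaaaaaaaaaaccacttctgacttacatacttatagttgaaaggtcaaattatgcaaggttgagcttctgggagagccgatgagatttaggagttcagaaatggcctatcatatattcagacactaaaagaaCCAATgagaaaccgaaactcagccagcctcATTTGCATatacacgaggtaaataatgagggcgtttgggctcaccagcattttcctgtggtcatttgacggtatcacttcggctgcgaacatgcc
HIST1H2BK: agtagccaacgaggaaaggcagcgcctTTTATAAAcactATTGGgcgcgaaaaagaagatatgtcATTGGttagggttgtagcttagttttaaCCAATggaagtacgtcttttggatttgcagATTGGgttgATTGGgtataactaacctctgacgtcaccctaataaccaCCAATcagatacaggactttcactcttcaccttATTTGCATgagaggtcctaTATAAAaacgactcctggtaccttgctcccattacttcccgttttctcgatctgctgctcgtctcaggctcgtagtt
HIST1H3G: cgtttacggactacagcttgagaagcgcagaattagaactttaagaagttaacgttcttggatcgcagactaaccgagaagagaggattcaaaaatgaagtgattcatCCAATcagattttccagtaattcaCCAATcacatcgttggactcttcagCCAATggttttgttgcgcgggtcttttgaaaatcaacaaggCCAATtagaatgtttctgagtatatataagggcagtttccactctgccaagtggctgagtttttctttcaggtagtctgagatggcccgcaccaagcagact
HIST1H3B: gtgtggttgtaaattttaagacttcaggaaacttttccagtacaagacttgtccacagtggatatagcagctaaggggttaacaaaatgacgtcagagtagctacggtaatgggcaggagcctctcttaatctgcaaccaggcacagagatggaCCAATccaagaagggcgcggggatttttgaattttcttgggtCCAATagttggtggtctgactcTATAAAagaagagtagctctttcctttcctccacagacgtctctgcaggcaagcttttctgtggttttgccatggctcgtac
HIST1H4L: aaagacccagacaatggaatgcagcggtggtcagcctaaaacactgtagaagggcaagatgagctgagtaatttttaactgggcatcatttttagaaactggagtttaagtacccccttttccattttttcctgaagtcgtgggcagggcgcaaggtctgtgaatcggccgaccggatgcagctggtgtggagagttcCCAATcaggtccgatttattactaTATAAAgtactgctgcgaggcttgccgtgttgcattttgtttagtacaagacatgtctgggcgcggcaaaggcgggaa
HIST1H4K: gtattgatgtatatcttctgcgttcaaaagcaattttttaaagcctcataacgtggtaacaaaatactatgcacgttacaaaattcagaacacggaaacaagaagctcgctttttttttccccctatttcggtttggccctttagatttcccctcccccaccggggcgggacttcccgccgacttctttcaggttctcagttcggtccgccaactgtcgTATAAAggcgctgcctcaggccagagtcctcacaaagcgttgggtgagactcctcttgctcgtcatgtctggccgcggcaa

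HIST1H1B and HIST1H1C both hold CCAAT and neither holds TATAAA. HIST1H2BI and HIST1H2BK both hold CCAAT and ATTTGCAT, and only HIST1H2BK of these 2 holds TATAAA. HIST1H3G and HIST1H3B both hold CCAAT. HIST1H4L holds CCAAT and HIST1H4K does not. Among the 4 H2B genes near 0 in control all 4 promoters hold ATTTGCAT, and among the 9 H2B genes that fell 6 do. A match describes the letters and not binding.

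Rising genes lay side by side in parts of HIST1. In the first block, 9 consecutive listed histone genes rose, from HIST1H2BG to HIST1H4H, across 69.4 kb (chr6:26216428-26285866, hg19). They were HIST1H2BG, HIST1H2AE, HIST1H3E, HIST1H1D, HIST1H3F, HIST1H2BH, HIST1H3G, HIST1H2BI and HIST1H4H, and so held every class. In the second block HIST1H1B, HIST1H3I and HIST1H4L rose side by side within 6.66 kb (chr6:27834627-27841288). The longest runs of falling genes were 4 genes in the first block, found in 2 places, and 5 genes from HIST1H2BK to HIST1H3H in the second. That run of 5 was spread over 665 kb. With median ratio scaling HIST1H2AH, in the run of 5, and HIST1H2BC, in a run of 4, did not pass. These runs were noticed in the values and were not tested.

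**Figure D2:**
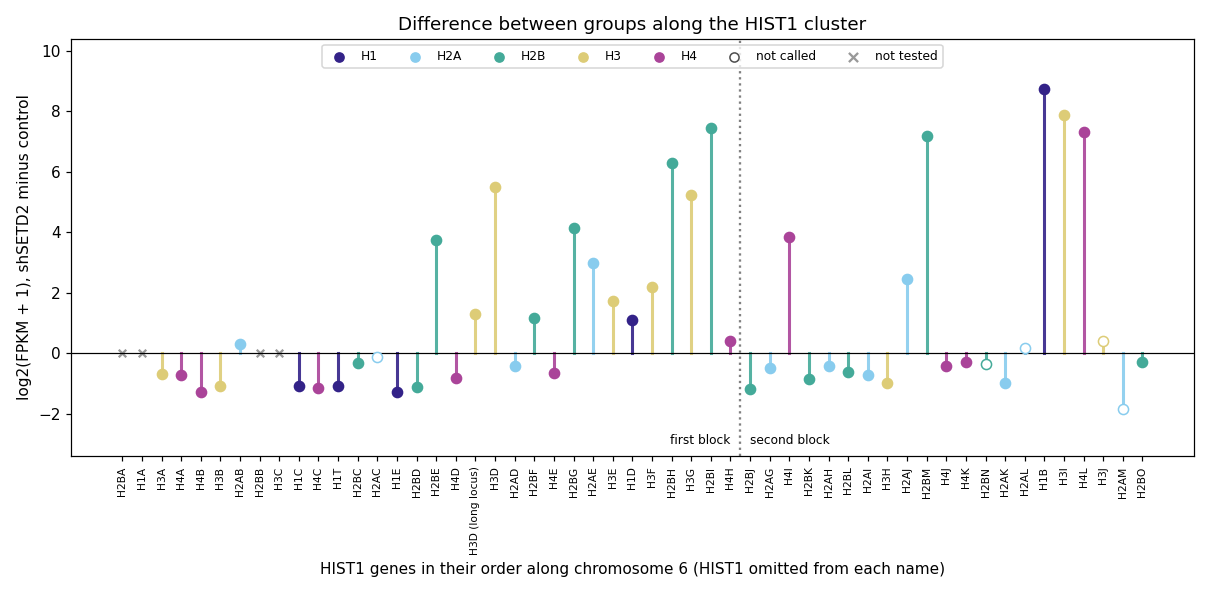
Each stem is a HIST1 gene in its order along chromosome 6, its height the shSETD2 minus control difference in log2(FPKM + 1), filled where the gene passed the test. The 9 rising genes at the end of the first block and the 3 near the end of the second stand above 0. The run of 9 lies between genes that fell, and the neighbours of the 3 did not pass the test.

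Genes within that run were not all silent in control. HIST1H2AE, an H2A gene, had 24.2, 29.5 and 30.9 FPKM in control and 229, 219 and 237 FPKM in shSETD2 libraries, 8.08 times the control mean. HIST1H2BG, which starts 331 bases away from HIST1H2AE on the other strand, had 5.95, 8.998 and 12.3 FPKM in control and 170, 169 and 172 FPKM in shSETD2 libraries. HIST1H3F, an H3 gene, had 66.8, 58.4 and 59.7 FPKM in control and 288, 264 and 293 FPKM in shSETD2 libraries. Every shSETD2 library exceeded every control library for these 3 genes.

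HIST1H1D, a linker histone gene, had 114, 116 and 116 FPKM in control and 243, 248 and 250 FPKM in shSETD2 libraries (log2 difference 1.09, SE 0.03, adjusted p = 1.94e-07 by limma). HIST1H4H, an H4 gene, ended the run with the smallest rise, from 26.7, 24.2 and 24.1 FPKM to 32.5, 32.1 and 34.3 FPKM. The groups did not overlap for either gene.

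H2A and H2B genes often share a promoter region and are read in opposite directions. Of 12 pairs of members read away from each other from starts within 1000 bases, 10 joined H2A with H2B. Both members rose in 3 pairs, both fell in 5, they moved in opposite directions in 1, and in 3 a member did not pass the test. Of all single genes tested, 26.8% rose and 51.8% fell, and the share of such pairs among other genes was not counted. HIST1H2BF and HIST1H2BO were each counted in 2 pairs. HIST1H2BF was counted as rising with the long HIST1H3D locus and as opposite to HIST1H2AD, which that locus covers. The call of the long HIST1H3D locus depended on single libraries. HIST1H2AJ, an H2A gene, had 61.4, 52.6 and 59.8 FPKM in control and 332, 300 and 335 FPKM in shSETD2 libraries, next to HIST1H2BM, which was at 0 in control. HIST1H2AJ shared 82.4% of its coding stretches with other genes. The pair that moved in opposite directions was HIST1H2AD, which fell from a mean of 214 to 157 FPKM, and HIST1H2BF, which rose from 26.7 to 60.8 FPKM. HIST1H2AD shared 97.8% of its stretches, with the long HIST1H3D locus that covers it.

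Among linker histones, HIST1H1C and HIST1H1E were the highest in control and fell. HIST1H1C had 881, 850 and 878 FPKM in control and 417, 390 and 418 FPKM in shSETD2 libraries (log2 difference -1.09, SE 0.04, adjusted p = 6.63e-07 by limma). HIST1H1E had 602, 553 and 610 FPKM in control and 242, 230 and 247 FPKM in shSETD2 libraries. HIST1H1T, known from testis, was low throughout and fell from a mean of 1.79 to 0.312 FPKM. The most abundant H1 gene in shSETD2 libraries was HIST1H1B, at 431 ± 13.5 FPKM (SD, n = 3), with HIST1H1C next at 408 ± 15.96 FPKM (SD, n = 3). Their ranges, 416 to 440 and 390 to 418 FPKM, overlapped.

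Among H2A genes, 10 of 16 fell, 3 rose and 3 did not pass the test, beside 51.8% lower and 26.8% higher among all genes. With median ratio scaling 4 were lower and 5 higher, beside 38.3% lower and 37.7% higher among all genes. HIST2H2AC had 465, 429 and 454 FPKM in control and 302, 282 and 301 FPKM in shSETD2 libraries. HIST1H2AI had 424, 389 and 398 FPKM in control and 244, 229 and 254 FPKM in shSETD2 libraries. HIST3H2A fell most among those that passed, from 62.6, 58.3 and 58.1 FPKM to 16.5, 14.9 and 16.7 FPKM (log2 difference -1.83, SE 0.06, adjusted p = 5.78e-07 by limma). Besides HIST1H2AE and HIST1H2AJ, the third H2A gene that rose was HIST1H2AB, from 66.5, 66.0 and 65.4 FPKM to 84.7, 78.2 and 81.4 FPKM.

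The other H2A genes of HIST2 fell in the values as deposited, and none of them fell with median ratio scaling. HIST2H2AA3 had 241, 227 and 229 FPKM in control and 177, 162 and 184 FPKM in shSETD2 libraries. HIST2H2AA4 had 389, 359 and 371 FPKM in control and 278, 256 and 287 FPKM in shSETD2 libraries. Neither passed the test with median ratio scaling. HIST2H2AB had 87.2, 93.9 and 88.9 FPKM in control and 77.8, 77.7 and 79.1 FPKM in shSETD2 libraries, a log2 difference of -0.20 that turned to a rise of 0.15 with median ratio scaling (adjusted p = 0.0105 by limma).

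Among the 16 H2B genes tested, 9 fell, 6 rose and HIST1H2BN did not pass, beside 51.8% lower and 26.8% higher among all genes. With median ratio scaling 6 were lower and 6 higher, beside 38.3% lower and 37.7% higher among all genes. HIST1H2BK was the highest, with 668, 606 and 660 FPKM in control and 362, 340 and 370 FPKM in shSETD2 libraries, and it shared 50.5% of its coding stretches. HIST1H2BD had 256, 251 and 260 FPKM in control and 113, 108 and 127 FPKM in shSETD2 libraries. HIST1H2BJ had 137, 133 and 132 FPKM in control and 58.8, 56.4 and 60.6 FPKM in shSETD2 libraries. Their shSETD2 means were 0.455 and 0.437 times the control means. HIST1H2BO, the last gene of the second block, had 249, 238 and 238 FPKM in control and 197, 186 and 205 FPKM in shSETD2 libraries, a log2 difference of -0.30 that became 0.05 with median ratio scaling.

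H2B genes outside HIST1 fell. HIST3H2BB had 29.7, 28.1 and 29.4 FPKM in control and 9.96, 9.23 and 9.81 FPKM in shSETD2 libraries. HIST2H2BF had 38.3, 35.8 and 36.6 FPKM in control and 16.9, 15.9 and 17.3 FPKM in shSETD2 libraries. HIST2H2BE fell from 101, 98.8 and 103 FPKM to 77.6, 75.5 and 77.9 FPKM and did not pass with median ratio scaling.

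Among the 14 H3 genes tested, 6 rose, 6 fell and 2 did not pass, beside 26.8% higher and 51.8% lower among all genes. HIST1H3B was the highest, with 769, 738 and 747 FPKM in control and 364, 321 and 370 FPKM in shSETD2 libraries. The HIST1H3D gene of a single exon had 4.46, 3.17 and 2.12 FPKM in control and 190, 177 and 188 FPKM in shSETD2 libraries, 56.9 times the control mean, but all of its stretches also occur in the long HIST1H3D locus. Falling H3 genes showed no overlap between the groups. HIST1H3A, with 159, 149 and 168 FPKM in control, had 102, 87.9 and 104 FPKM in shSETD2 libraries. HIST1H3H had 132, 125 and 131 FPKM in control and 63.5, 61.9 and 68.3 FPKM in shSETD2 libraries.

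H3 genes of HIST2 fell, apart from HIST2H3PS2, which did not pass. HIST2H3A had 130, 123 and 128 FPKM in control and 76.8, 66.1 and 78.3 FPKM in shSETD2 libraries. HIST2H3C, which shares all of its coding stretches, had 142, 132 and 136 FPKM in control and 84.2, 72.3 and 85.7 FPKM in shSETD2 libraries. HIST2H3D had 144, 137 and 139 FPKM in control and 97.5, 81.3 and 101 FPKM in shSETD2 libraries. HIST2H3PS2 had 3.00, 4.03 and 4.94 FPKM in control and 3.12, 2.51 and 2.89 FPKM in shSETD2 libraries (adjusted p = 0.0635 by limma), just outside the threshold.

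Among the 13 H4 genes, 7 fell, 4 rose and 2 did not pass, beside 51.8% lower and 26.8% higher among all genes. With median ratio scaling 5 were lower and 4 higher, beside 38.3% lower and 37.7% higher among all genes. HIST1H4B fell most, from 264, 235 and 244 FPKM to 103, 99.9 and 96.7 FPKM (log2 difference -1.30, SE 0.05, adjusted p = 1.32e-06 by limma). HIST1H4D had 368, 372 and 358 FPKM in control and 209, 202 and 214 FPKM in shSETD2 libraries. HIST1H4K had 409, 359 and 405 FPKM in control and 316, 315 and 331 FPKM in shSETD2 libraries, a log2 difference of -0.28 that became 0.07 with median ratio scaling. HIST1H4J, its near-identical copy, had 387, 338 and 381 FPKM in control and 271, 270 and 286 FPKM in shSETD2 libraries and did not pass with that scaling.

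HIST2H4A and HIST2H4B share all their coding stretches and did not move together. HIST2H4B rose from 13.96, 33.5 and 18.2 FPKM to 50.2, 45.8 and 49.8 FPKM (adjusted p = 0.00801 by limma). HIST2H4A had 20.1, 72.7 and 30.7 FPKM in control and 12.6, 19.4 and 18.2 FPKM in shSETD2 libraries (adjusted p = 0.0672 by limma). Control library 2 was the highest of the control libraries for both.

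By class, summed FPKM was lower in every shSETD2 library than in any control library for H1, H2A and H4 and overlapped between the groups for H2B and H3. H4 summed to 2158, 2072 and 2132 FPKM in control and to 1538, 1487 and 1584 FPKM in shSETD2 libraries. H1 summed to 1600, 1520 and 1606 FPKM in control and to 1340, 1284 and 1355 FPKM in shSETD2 libraries. H2A summed to 3043, 2984 and 2954 FPKM in control and to 2636, 2208 and 2680 FPKM in shSETD2 libraries. In shSETD2 library 2, the lowest, HIST1H2AM had 17.2 FPKM, against 293 and 313 FPKM in libraries 1 and 3.

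H2B had 1863, 1756 and 1854 FPKM in control and 1756, 1677 and 1811 FPKM in shSETD2 libraries, and H3 had 1582, 1502 and 1557 FPKM in control and 1605, 1558 and 1627 FPKM in shSETD2 libraries. As a share of all histone FPKM, H4 made up 21.1% ± 0.02 of control libraries and 17.6% ± 0.41 of shSETD2 libraries, and H3 made up 15.4% ± 0.09 and 18.3% ± 0.55 (SD, n = 3 each). HIST1H3J added 142 FPKM to the H3 sum of shSETD2 library 2, against 13.2 and 11.97 FPKM in libraries 1 and 3. With 3 libraries in each group an exact two-sided permutation test cannot go below p = 0.1, so the sums are given without a test. The log2 ratio of group means turned from lower to higher with median ratio scaling for H1 (0.11), H2A (0.10) and H2B (0.29), and stayed lower for H4 (-0.11).

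**Figure D3:**
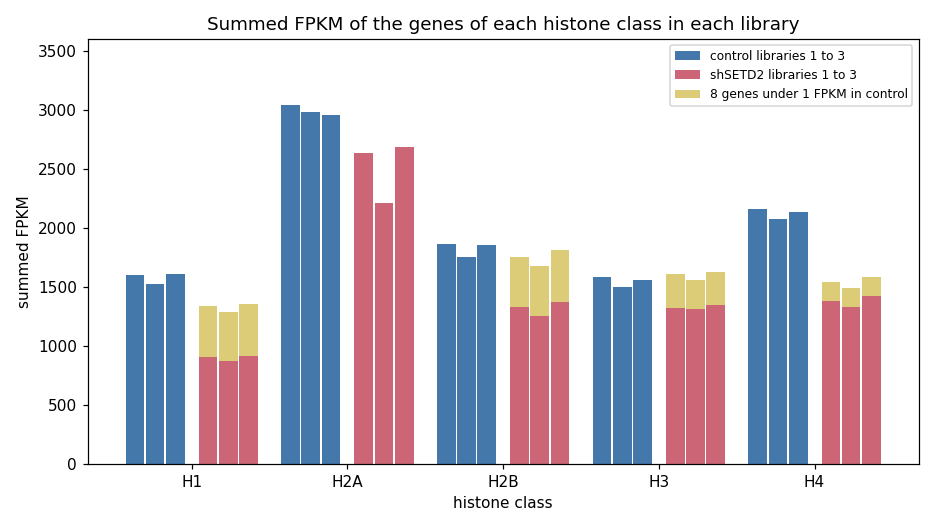
Bars give the summed FPKM of each histone class in each library, 3 control bars before 3 shSETD2 bars, with the 8 genes under 1 FPKM in every control library stacked on top in yellow. The stacked part fills 14.7% to 15.1% of the summed histone FPKM of the shSETD2 libraries and none of it belongs to H2A.

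By cluster, HIST2 summed to 1774, 1747 and 1739 FPKM in control and 1254, 1156 and 1281 FPKM in shSETD2 libraries. Of its 12 genes 9 fell, 1 rose and 2 did not pass, beside 51.8% lower and 26.8% higher among all genes. With median ratio scaling 5 were lower, 2 higher and 5 did not pass, beside 38.3% lower and 37.7% higher among all genes. Both HIST3 genes fell, also with that scaling. The first HIST1 block had 14 rising and 13 falling genes and the second 6 rising and 11 falling. With median ratio scaling the first had 14 rising and 11 falling genes and the second 7 rising and 6 falling. HIST4H4, the lone gene on chromosome 12, had 20.9, 20.2 and 20.5 FPKM in control and 20.7, 0.237 and 19.3 FPKM in shSETD2 libraries.

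HIST4H4 was 1 of 6 histone genes that differed over 3-fold between libraries of a group, among 62 that reached 10 FPKM in a library, beside 1.46% of 5336 such genes overall. HIST1H2AM, an H2A gene, had 426, 434 and 436 FPKM in control and 293, 17.2 and 313 FPKM in shSETD2 libraries. HIST1H3J, an H3 gene whose locus overlaps that of HIST1H2AM by 350 bases on the same strand, had 24.4, 20.0 and 20.5 FPKM in control and 13.2, 142 and 11.97 FPKM in shSETD2 libraries. Of the coding stretches of HIST1H2AM 85.3% are shared, and HIST1H3J transcripts hold 85%, so the values of both genes are uncertain. In shSETD2 library 2 HIST1H2AM was low and HIST1H3J high. Without that library HIST1H2AM fell, with a log2 difference of -0.51 (adjusted p = 1.22e-04 by limma), and HIST1H3J turned to -0.73 (adjusted p = 0.00155 by limma).

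HIST1H2AC, an H2A gene, had 3.45, 95.7 and 4.14 FPKM in control and 10.8, 11.3 and 10.3 FPKM in shSETD2 libraries. Without control library 2 its difference turned from -0.14 to 1.30 (adjusted p = 8.85e-05 by limma). The long HIST1H3D locus had 4.20, 8.13 and 18.3 FPKM in control and 21.3, 21.9 and 25.8 FPKM in shSETD2 libraries (adjusted p = 0.0333 by limma) and lost its call without control library 1 or 2 or any 1 shSETD2 library, with adjusted p of 0.0579 to 0.0888. The last of the 6 was HIST2H4A.

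**Figure D4:**
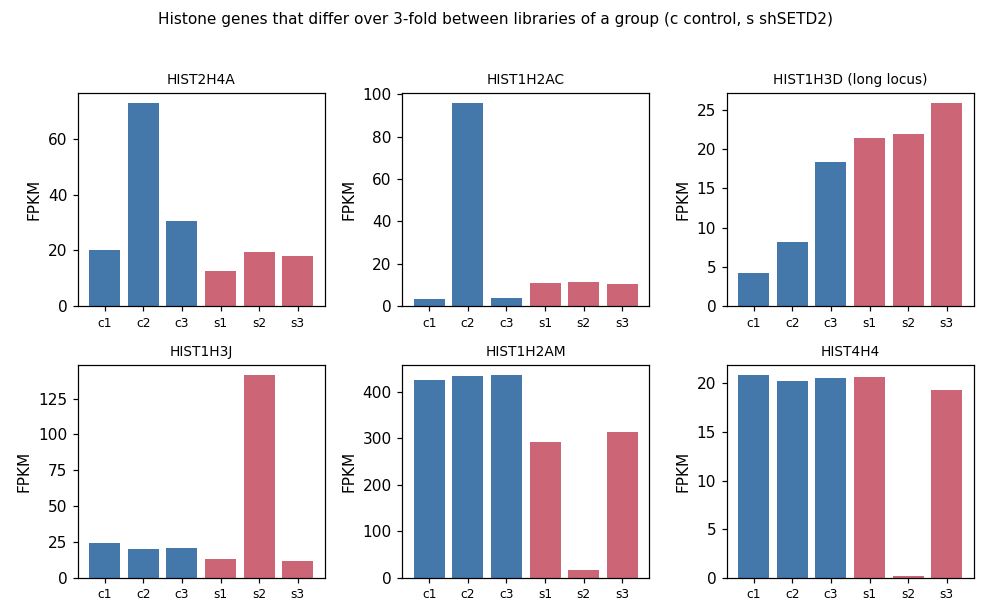
Bars give FPKM in control libraries (c1 to c3) and shSETD2 libraries (s1 to s3) for the 6 histone genes that differ over 3-fold within a group. HIST1H2AM and HIST1H3J, which share sequence, stand apart in shSETD2 library 2 in opposite directions, and HIST1H2AC is high only in control library 2.

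Transcripts of some histone genes can carry a poly(A) tail, and 10 such genes were listed from general knowledge. Of these, 8 fell, 1 rose and 1 did not pass, with a median log2 difference of -0.63, beside 51.8% lower among all genes. With median ratio scaling 5 were lower and 1 higher, beside 38.3% lower and 37.7% higher among all genes. Their sum was 2585, 2544 and 2549 FPKM in control and 1431, 1344 and 1465 FPKM in shSETD2 libraries. The 8 genes near 0 in control were not on this list. Of 18 other RNAs that lack a tail only TERC, the telomerase RNA, and RMRP, an RNA of ribosomal RNA processing, were listed. TERC fell from a mean of 267 to 65.4 FPKM and RMRP from 13097 to 7046 FPKM.

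Histone variants made outside replication mostly have ordinary polyadenylated transcripts. Of 11 tested, 4 rose and 6 fell, with a median log2 difference of -0.23, beside 26.8% higher and 51.8% lower among all genes. Under median ratio scaling the counts were 5 higher and 2 lower, beside 37.7% higher and 38.3% lower among all genes. H2AFJ, an H2A variant, rose from a mean of 0.968 to 12.1 FPKM, and H1F0, the linker histone of resting cells, rose from 108 to 219 FPKM. H2AFY2, a macroH2A gene, fell from 27.7 to 0.459 FPKM and H3F3A, a gene of the replacement H3, from 63.3 to 37.7 FPKM.

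Of 19 genes that transcribe histone genes and cut their transcripts, 13 fell and 1 rose, with a median log2 difference of -0.48, where 51.8% of all genes tested fell and 26.8% rose. With median ratio scaling 9 were lower and 4 higher, beside 38.3% lower and 37.7% higher among all genes. LSM11, a subunit of the U7 particle that cuts histone transcripts, fell most, from 8.53, 8.34 and 8.44 FPKM to 0.753, 0.823 and 0.652 FPKM. CASP8AP2, also called FLASH and part of the same machinery, fell from a mean of 13.1 to 5.91 FPKM, and NPAT, the coactivator of histone gene transcription, from 9.22 to 6.35 FPKM. SLBP did not pass, at 25.4 ± 4.20 FPKM without and 22.2 ± 1.42 FPKM with the SETD2 hairpin (SD, n = 3 each). SNRPE, a spliceosomal core protein, fell from 73.2 to 26.6 FPKM. SNRPG, another, was the 1 that rose, by 0.11 on the log2 scale, and SNRPB had a difference of 0.12 and did not pass.

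Of 11 genes listed around histone mRNA decay, 7 fell, 0 rose and 4 did not pass, beside 51.8% lower among all genes. Under median ratio scaling 5 were lower and 1 higher, beside 38.3% lower and 37.7% higher among all genes. LSM3 fell from 20.1 to 10.8 FPKM, and MIF4GD, a partner of SLBP rather than a decay enzyme, from 5.17 to 2.45 FPKM. ERI1, the exonuclease that trims the stem-loop, had 3.48 ± 1.34 FPKM in control and 4.50 ± 1.22 FPKM in shSETD2 libraries (SD, n = 3 each) and did not pass. DIS3L2 had a log2 difference of -0.06 and did not pass.

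Of 18 histone chaperone genes, 14 fell and 2 rose, with a median of -0.59, beside 51.8% lower and 26.8% higher among all genes. With median ratio scaling 10 were lower and 4 higher, beside 38.3% lower and 37.7% higher among all genes. CHAF1A, a subunit of the chromatin assembly factor that loads new histones behind the fork, fell from 34.1 to 16.1 FPKM, and ASF1B, a carrier of H3 and H4, from 18.6 to 8.66 FPKM. HJURP, the chaperone of the centromeric histone CENPA, rose from 11.1 to 40.2 FPKM, and DAXX, a chaperone of the replacement H3, from 9.52 to 16.6 FPKM. Of 25 S phase genes, 20 fell and 3 rose, with a median of -0.45, beside the same 51.8% and 26.8% of all genes. With median ratio scaling 11 were lower and 6 higher, beside 38.3% lower and 37.7% higher among all genes. CDC25A, a phosphatase that drives entry into S phase, fell from 42.9 to 8.62 FPKM. MCM5, a subunit of the replicative helicase, rose from 17.2 to 23.0 FPKM, while RRM2, a ribonucleotide reductase subunit, had a difference of 0.74 and did not pass.

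Among the non-histone genes that lie between the histone genes of HIST1, 4 of 17 rose and 9 fell, with a median of -0.41, which is near the 26.8% higher and 51.8% lower of all genes. TRIM38 rose from 2.16 to 10.9 FPKM and HFE, a regulator of iron uptake, from 0.00543 to 2.72 FPKM. ZNF322 fell from 10.98 to 4.07 FPKM and BTN2A2 from 8.11 to 3.50 FPKM.

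**Figure D5:**
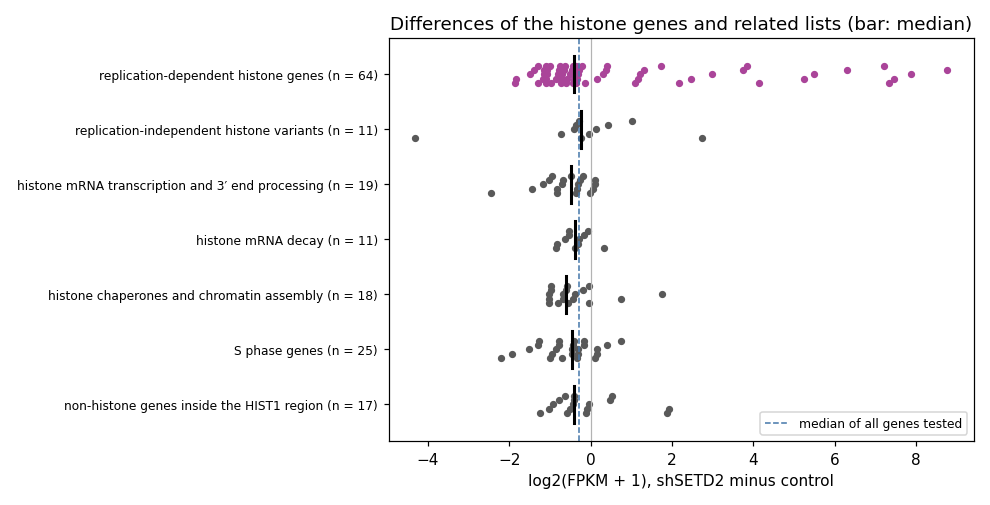
Each point is a gene tested, placed by its shSETD2 minus control difference in log2(FPKM + 1), with a bar at the median of each list and a dashed line at -0.29, the median of all genes tested. The related lists lie between -4.31 and 2.73, and the histone genes farthest to the right are those at or near 0 in control, whose position depends on the pseudocount.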

How the data were processed

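The authors mapped reads to hg19 with Hisat2, quantified genes with Ballgown and deposited FPKM for each gene and library, from total RNA prepared with a stranded kit. Tool versions are not given in the sources used here. A further deposited table holds the authors' own fold changes and p-values and was not used. Genes averaging 0.5 FPKM or more were compared between 3 control and 3 shSETD2 libraries on log2(FPKM + 1), a scale that understates the change of low genes, with limma 3.58.1 (lmFit, eBayes with trend, R 4.3.3) and Benjamini-Hochberg adjustment over the 14068 genes tested, at a threshold of 0.05. The fit was tested on simulated data in which few genes differed, equally in both directions. Most genes differ between these groups, so that setting is unlike the data. Depth is unknown.

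Members and lists were chosen with earlier results of these data known. Named genes were, in each class, the 3 highest by mean FPKM, the 3 largest and 2 smallest differences, and every member outside HIST1. From the lists they were SLBP, NPAT, CASP8AP2, LSM11 and the 2 largest and 2 smallest differences. A few list genes meeting it are left out here. The genes near 0 in control, the runs, the head-to-head pairs and the genes with a spread over 3-fold were named after their values were seen. A marker list counts genes with a mean of at least 1 FPKM. Stem-loops and shared 75-base stretches were read from GRCh37 with the GENCODE annotation, promoters from RefSeq (GRCh38.p14). Alternatives were other pseudocounts, filters, scalings and variance models, a replicate block and each library left out. Figures were drawn with matplotlib 3.10.9, and tables were made with pandas 2.3.3 in Python 3.11.15.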

Additional observations from a re-analysis of the deposited data

How the results depend on the processing

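Counts of called histone genes stayed between 19 and 23 higher and between 24 and 37 lower over all 16 alternatives, and between 20 and 21 higher and 35 and 37 lower when 1 library was left out. The median log2 difference of the histone genes was -0.0677 with median ratio scaling, against which all genes tested had -0.01. With that scaling the log2 ratio of summed FPKM was 0.11 for H1, 0.10 for H2A, 0.29 for H2B, 0.40 for H3 and -0.11 for H4, and HIST1H2BC (0.0298), HIST1H2BO (0.0531), HIST1H4K (0.0711), HIST2H2AB (0.15) and HIST1H2AC (0.17) changed sign. With quantile normalization the log2 ratio was -0.18 for H2B, -0.0365 for H3 and -0.56 for H4. With 1 library left out, HIST1H2AC ranged from -0.92 to 1.30, the latter without control replicate 2, and HIST1H3J from -0.73, without shSETD2 replicate 2, to 0.997. The scalings differ by construction in what they hold equal between libraries. Of 766 single-gene values over 48 histone genes, 743 kept their direction and their side of the threshold.

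SETD2 had a log2 difference of -0.83 to -0.45 when 1 library was left out, and passed without control replicate 2 (-0.83, adjusted p = 0.00666 by limma) or shSETD2 replicate 3 (-0.73, adjusted p = 0.0420 by limma). The labels do not say whether the replicate numbers pair the libraries. Deviations of libraries with the same number had correlations of -0.02, 0.02 and -0.01, which cannot show how the libraries were prepared. With the replicate block, SETD2 was -0.58 (adjusted p = 0.0156 by limma) and HIST2H4A passed (adjusted p = 0.0208 by limma). Depth behind FPKM is unknown, so differences of genes near 0 have no counting error.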
